A study of Mus musculus with 14 samples.

Results

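The antioxidant and glutathione genes examined here were chosen by name. They were the protein-coding genes for superoxide dismutases, catalase, peroxiredoxins and sulfiredoxin, glutathione peroxidases, the thioredoxin system, glutathione synthesis and reduction, soluble and membrane glutathione S-transferases, heme oxygenases, NAD(P)H quinone dehydrogenase 1, and the regulators *Nfe2l2* and *Keap1*. Of 55487 genes in the count table, 21936 of them protein coding, 59 met this rule, and 50 of the 59 passed the filter on low counts that left 16915 genes to be tested. RNA-seq was run on intervertebral discs from 5 caudal levels, pooled for each male mouse, in 2 models of type 2 diabetes. The db/db group (n = 3) carried the homozygous *Lepr* mutation, a point mutation in the gene for the leptin receptor. Its db/+ controls (n = 3) were heterozygous littermates, so both groups carried the mutant allele. These mice were 3 months old. The STZ-HFD group (n = 4) were C57BL/6J mice, 12 weeks old at the start, that ate a high-fat diet for 4 to 6 weeks, received 1 dose of streptozotocin at 100 mg/kg and stayed on the diet for 12 more weeks. Streptozotocin is a toxin of the insulin-producing β-cell, and the labels give the fat content of the diet as 80% of its energy, whereas the study's methods describe a diet with a lower share of fat. The Con+Veh group (n = 4) were C57BL/6J mice on standard chow that received citrate buffer only. Diet and toxin were given together, so their shares in any STZ-HFD value cannot be told apart.

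These genes form the chain that clears superoxide and peroxides. Superoxide dismutases turn superoxide into hydrogen peroxide, which catalase, the peroxiredoxins and the glutathione peroxidases then reduce. The peroxidases draw on thioredoxin and on glutathione, a tripeptide made by glutamate-cysteine ligase and glutathione synthetase. Glutathione S-transferases join glutathione to electrophiles such as products of lipid oxidation. NRF2, encoded by *Nfe2l2* and held down by KEAP1, switches on many of these genes through the antioxidant response element. The disc is largely avascular, and its cells live at low oxygen in a collagen and proteoglycan matrix.

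Total counts ran from 16076908 to 58943169 per library, of which 28.1 to 60.3% fell on ribosomal RNA genes. Scaled by the library total alone, 3 counts corresponded to 0.0509 to 0.187 CPM (counts scaled to library size), depending on the library. The CPM values below are also scaled by the trimmed mean of M-values (TMM), so this floor is on a slightly different scale. Here n is the number of mice. The discs were whole pooled tissue, so fewer cells of a type and less RNA per cell cannot be told apart in any of the values that follow. The summed level of 8 disc cartilage markers was 37029 to 57673 CPM in db/+, 16821 to 44336 CPM in db/db and 3582 to 16295 CPM in Con+Veh libraries, but 953 to 2004 CPM in STZ-HFD libraries. The 2 control groups therefore differed in this measure too. The summed level of 10 skeletal muscle markers was between 2830 CPM in a db/db and 20587 CPM in an STZ-HFD library, so muscle RNA was present in every library. STZ-HFD replicate 1 held counts for 42626 genes, against 25194 to 29924 in the other 13 libraries.

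The most abundant of these genes is a selenoprotein. Glutathione peroxidases 1 to 4 and the 3 thioredoxin reductases use selenocysteine, which is read from a TGA codon that would otherwise stop translation. The codons are shown for the 4 tested members to which the results below return most, read from the GRCm38 genome with the annotated transcript, with the selenocysteine codon in capitals and 12 bases of the transcript on either side. In *Txnrd2* selenocysteine is the last residue but 1, so the bases after its glycine codon are the stop codon and the start of the untranslated end.
Gpx1: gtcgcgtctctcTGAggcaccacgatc
Gpx3: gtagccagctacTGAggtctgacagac
Gpx4: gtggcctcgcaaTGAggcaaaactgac
Txnrd2: gtgactggttgcTGAggctaagtcacc
The codon of *Gpx3* lies at chr11:54907256-54907258 (+), that of *Gpx1* at chr9:108339451-108339453 (+), that of *Gpx4* at chr10:80054737-80054739 (+) and that of *Txnrd2* at chr16:18477772-18477774 (+). In each of the 4 the codon after TGA begins with gg, encoding glycine. Of the 7 genes with such a codon, *Gpx2* was the only one that did not pass the filter on low counts.

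Levels of different genes were compared as CPM per kilobase of annotated exon. *Gpx3*, which encodes the secreted plasma form of glutathione peroxidase, stood first in all 4 groups, at 512 ± 179 CPM per kilobase in db/+, 508 ± 117 in db/db, 439 ± 161 in Con+Veh and 110 ± 33.4 in STZ-HFD discs (SD). In db/+, db/db and Con+Veh its lead over the gene in the next place exceeded the SDs of both. In STZ-HFD discs the next gene was *Txnip*, the thioredoxin-interacting protein, at 95.3 ± 30.5 CPM per kilobase, so the first place there was within the spread between mice. *Gpx1*, the cytosolic and mitochondrial form, came second in db/+ at 77.7 ± 15.4, in db/db at 165 ± 26.1 and in Con+Veh at 101.4 ± 59.8 CPM per kilobase. *Gstm1*, a cytosolic glutathione S-transferase, came next in these 3 groups. The order depended in part on the scale, with a Spearman correlation between CPM per kilobase and TPM (transcript levels corrected for length and library size) of 0.827 to 0.839 across the 59 genes within a group. By TPM *Gpx1* was first and *Gpx3* was in place 3 in STZ-HFD discs, and transcripts of some of these genes were not analysed here.

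**Figure D1:**
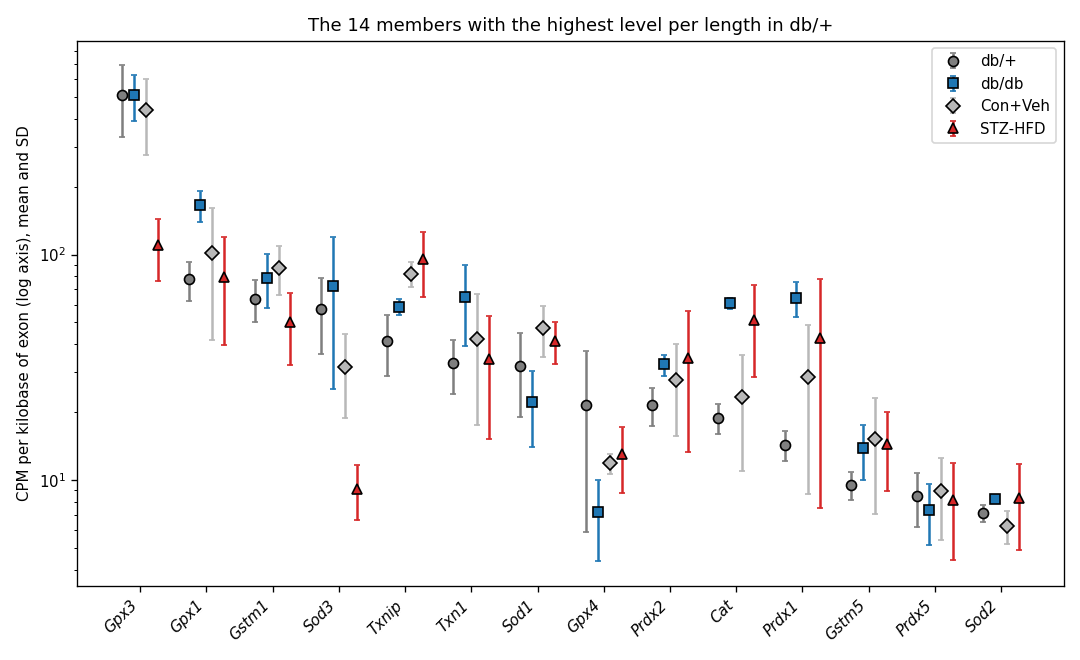
Mean level per length (CPM per kilobase of exon, log axis) of the 14 members with the highest level in db/+, by group, with SD as bars (n = 3 in db/+ and db/db, n = 4 in Con+Veh and STZ-HFD). *Gpx3* lies near 500 CPM per kilobase in 3 groups and at 110 in STZ-HFD, where *Sod3* is also below its other groups.

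Across the 50 tested members, 3 rose and 0 fell in db/db relative to db/+ at an adjusted p under 0.05 and a log2 fold change of at least 1 in limma. Among all 16915 genes 1.23% rose and 0.432% fell by the same rule. Without the limits on fold and adjustment, 10 members were higher and 3 lower at an unadjusted p under 0.05 (the 3 were *Gpx4*, *Txnrd2* and *Keap1*), where 10.7% of all genes were higher and 10.4% lower. DESeq2 called 4 increases and 1 decrease (*Gpx4*) in db/db, and edgeR 0 of either. In STZ-HFD relative to Con+Veh discs 2 members rose and 2 fell, where 1.3% of all genes rose and 1.31% fell. At an unadjusted p under 0.05 there were 6 higher and 3 lower members, against 8.34% and 9.54% of all genes, and DESeq2 called 0 increases and 2 decreases and edgeR 0 and 1. The members' log2 fold changes had a median of 0.19 in db/db, with 32 of 50 above 0, and 0.14 in STZ-HFD, with 30 of 50 above 0. Over all genes tested these medians were -0.04 and -0.04. In db/db discs the libraries of model and control did not overlap for 20 members, 15 of them higher and 5 lower in db/db. The share among all 16915 genes was 25.8%, with 2385 genes higher and 1986 lower. In STZ-HFD discs the libraries of model and control did not overlap for 3 members, *Gstt2* above and *Gpx3* and *Sod3* below. There the share among all genes was 4.74%, with 333 genes above and 468 below.

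**Figure D2:**
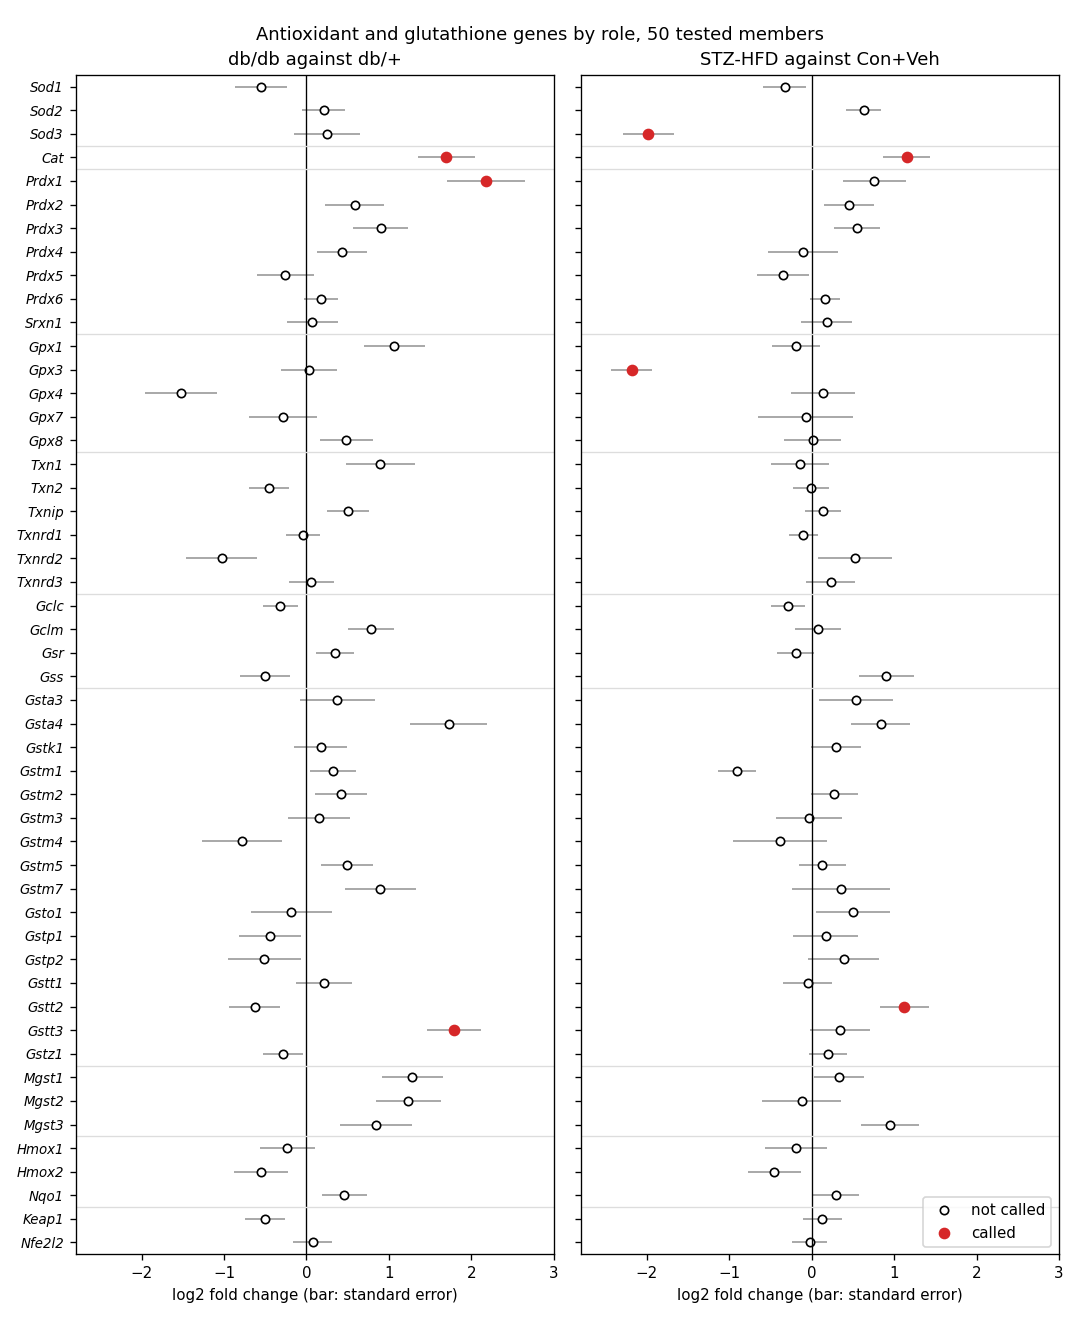
Log2 fold change of the 50 tested members, grouped by role, in db/db against db/+ (left) and STZ-HFD against Con+Veh (right). Points are limma estimates, bars are standard errors and filled points passed the adjusted p and fold limits. *Cat* is the one member filled in both panels.

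Superoxide dismutases were called in STZ-HFD only through *Sod3*, the secreted form that binds to the extracellular matrix. *Sod3* (ENSMUSG00000072941, chr5:52363791-52371418, plus strand, GRCm38) was at 21.1, 39.4, 34.2 and 42.1 CPM in the 4 STZ-HFD libraries and at 93.5, 63.2, 153 and 164 CPM in the 4 Con+Veh libraries. Every STZ-HFD library lay below every control. *Sod3* fell by 1.98 on the log2 scale (SE 0.309, limma adjusted p = 0.00445), from 118 ± 48.1 to 34.2 ± 9.31 CPM. It no longer passed without Con+Veh replicate 3 (-1.80, adjusted p = 0.114), Con+Veh replicate 4 (-1.78, 0.0733) or STZ-HFD replicate 3 (-1.96, 0.0644). In the db/db libraries *Sod3* was at 135, 207 and 472 CPM and in db/+ at 138, 211 and 296 CPM. These groups overlapped throughout (log2 fold change 0.25, adjusted p = 0.768). *Sod1*, the copper-zinc enzyme of the cytosol, gave log2 fold changes of -0.55 (db/db, adjusted p = 0.327) and -0.33 (STZ-HFD, adjusted p = 0.566). *Sod2*, the manganese enzyme of the mitochondrial matrix, was at 62.2, 47.5, 102 and 121 CPM in STZ-HFD libraries and at 56.1, 78.1, 57.4 and 58.2 CPM in Con+Veh libraries. Here 2 of the STZ-HFD libraries were above all controls and 1 was below all of them, and the log2 fold change of 0.63 (SE 0.217) did not pass (adjusted p = 0.123).

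*Cat*, which encodes the peroxisomal enzyme that splits hydrogen peroxide, was the one member that rose in both models by limma, although the STZ-HFD increase passed in 3 of 17 other settings. *Cat* (ENSMUSG00000027187, chr2:103453849-103485160, minus strand) was at 151, 168 and 158 CPM in db/db libraries and at 56.7, 48.8 and 41.9 CPM in db/+ libraries. The db/db libraries were close together, and all of them were far above the highest db/+ library. *Cat* rose by 1.70 on the log2 scale (SE 0.342, limma adjusted p = 0.0239), from 49.1 ± 7.45 to 159 ± 8.76 CPM. The call was lost without db/+ replicate 2 or 3 or any 1 db/db library, at log2 fold changes of 1.60 to 1.73 and adjusted p of 0.0579 to 0.0875. In STZ-HFD libraries *Cat* was at 141, 76.4, 212 and 105 CPM, against 26.6, 102, 68.6 and 46.6 CPM in Con+Veh libraries. The group means were 134 ± 58.6 and 61.0 ± 32.5 CPM, and 1 STZ-HFD library lay within the control range. The log2 fold change in STZ-HFD was 1.15 (SE 0.281, limma adjusted p = 0.0322). This call was lost without Con+Veh replicate 3 (1.39, adjusted p = 0.191), Con+Veh replicate 4 (0.98, 0.221), STZ-HFD replicate 3 (0.76, 0.381) or STZ-HFD replicate 4 (1.21, 0.0898). It did not pass in DESeq2 (1.15, adjusted p = 0.0574) or edgeR (1.13, adjusted p = 0.228).

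Among the peroxiredoxins, thiol peroxidases that are recycled by thioredoxin, 1 of 7 genes including sulfiredoxin rose in db/db and 0 of 7 in STZ-HFD. At an unadjusted p under 0.05 there were 2 and 0, and DESeq2 called 1 and 0 and edgeR 0 and 0. *Prdx1* (ENSMUSG00000028691, chr4:116685544-116700822, plus strand), the abundant cytosolic member, was at 224, 157 and 207 CPM in db/db libraries and at 49.5, 36.4 and 44.5 CPM in db/+ libraries. The groups did not overlap, and every db/db library was at least 3 times the highest db/+ library. *Prdx1* rose by 2.18 on the log2 scale (SE 0.469, limma adjusted p = 0.0304). Leaving out any 1 of these 6 libraries gave log2 fold changes of 2.04 to 2.33 and ended the call (adjusted p = 0.0514 to 0.109). In STZ-HFD libraries *Prdx1* was at 76.4, 58.6, 289 and 95.5 CPM and in Con+Veh libraries at 22.98, 169, 70.2 and 86.5 CPM. Both groups had 1 library far above the others and overlapped (log2 fold change 0.76, adjusted p = 0.308). *Prdx3*, the mitochondrial peroxiredoxin, was higher in every db/db library than in db/+ (10.3 ± 2.82 against 5.43 ± 2.00 CPM), with a log2 fold change of 0.90 that did not pass (adjusted p = 0.140). The remaining peroxiredoxins and *Srxn1*, which repairs over-oxidized peroxiredoxins, had log2 fold changes of -0.26 to 0.58 in db/db and -0.35 to 0.45 in STZ-HFD.

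The glutathione peroxidases carried the member with the smallest p of either comparison. *Gpx3* (ENSMUSG00000018339, chr11:54902453-54910377, plus strand) was at 134, 278, 208 and 177 CPM in STZ-HFD libraries and at 775, 413, 879 and 1114 CPM in Con+Veh libraries. The highest STZ-HFD library was below the lowest control. *Gpx3* fell by 2.18 on the log2 scale (SE 0.249, limma adjusted p = 0.000217), from 795 ± 292 to 199 ± 60.5 CPM. It passed in all 14 refits with 1 library removed, at log2 fold changes of -2.32 to -1.95. In db/db libraries *Gpx3* was at 815, 784 and 1165 CPM and in db/+ libraries at 1296, 685 and 801 CPM. Those groups had nearly the same mean, 921 and 928 CPM (log2 fold change 0.03, adjusted p = 0.974). *Gpx1* (chr9:108338903-108340343) was at 266, 195 and 252 CPM in db/db libraries and at 108, 136 and 91.8 CPM in db/+ libraries. The groups did not overlap, but the log2 fold change of 1.07 (SE 0.369) did not pass (adjusted p = 0.120).

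*Gpx4* (chr10:80047166-80056439), which reduces lipid peroxides in membranes, was at 15.6, 6.76 and 14.7 CPM in db/db libraries and at 30.4, 67.0 and 14.2 CPM in db/+ libraries. The groups overlapped, and the log2 fold change of -1.52 (SE 0.434) did not pass in limma (adjusted p = 0.0718). Without db/+ replicate 2, the highest library, it was -0.84 (adjusted p = 0.278), without db/+ replicate 3 it was -1.97 and passed (adjusted p = 0.0381), and with the muscle markers as a covariate it was -0.33 (adjusted p = 0.775). Reads of *Gpx4* can also be assigned to its pseudogene copy *Gpx4-ps2*, which held 391, 1798 and 254 counts in db/+ and 144, 115 and 291 counts in db/db libraries, so its value is uncertain. With both summed, a fit chosen after seeing the data, the log2 fold change was -1.64 (adjusted p = 0.0673). In STZ-HFD discs *Gpx1* and *Gpx4* gave log2 fold changes of -0.19 and 0.14. *Gpx7* and *Gpx8*, which act in the endoplasmic reticulum, gave -0.28 and 0.48 in db/db. *Gpx2*, *Gpx5* and *Gpx6* were not tested.

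**Figure D3:**
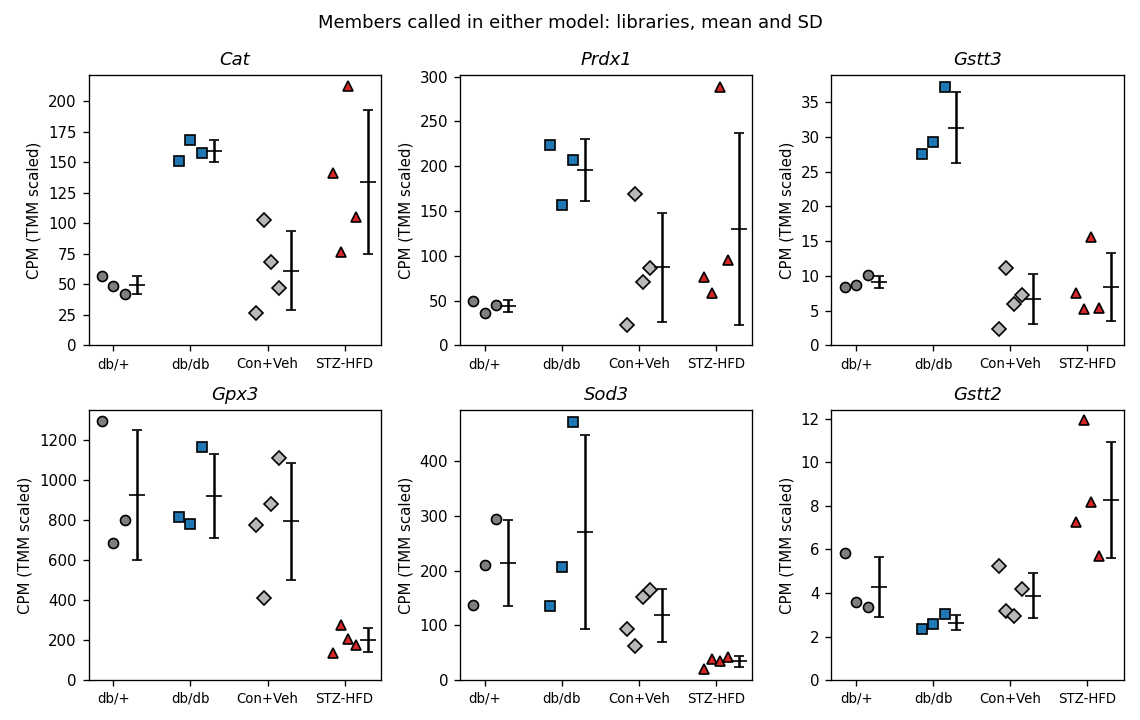
Level of the 6 members that rose or fell in either model (CPM, TMM scaled, linear axis from 0), 1 point per library, with the group mean and SD to the right of the points. *Cat*, *Prdx1* and *Gstt3* separate db/db from db/+, and *Gpx3*, *Sod3* and *Gstt2* separate STZ-HFD from Con+Veh.

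In the thioredoxin system, which hands electrons from NADPH to peroxiredoxins, 0 of 6 genes passed in either model by limma, DESeq2 or edgeR, with an unadjusted p under 0.05 for 2 in db/db and 0 in STZ-HFD. *Txn1*, the cytosolic thioredoxin, had a log2 fold change of 0.90 in db/db (adjusted p = 0.227) and -0.14 in STZ-HFD. *Txnrd2*, the mitochondrial reductase, was lower in every db/db library than in db/+ (1.16 ± 0.194 against 2.34 ± 0.402 CPM; log2 fold change -1.03, adjusted p = 0.185). *Txnrd1*, the cytosolic reductase, differed little, at -0.05 in db/db and -0.10 in STZ-HFD. *Txnip*, which binds and inhibits thioredoxin and is known to respond to glucose, was at 183 ± 14.6 CPM in db/db against 129 ± 38.6 CPM in db/+ discs and at 298 ± 95.1 CPM in STZ-HFD against 256 ± 32.5 CPM in Con+Veh discs. Its log2 fold changes of 0.50 and 0.13 did not pass (adjusted p = 0.275 and 0.800).

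Genes for making and recycling glutathione did not pass the test either, 0 of 4 in each model by limma, DESeq2 or edgeR, with 1 of 4 at an unadjusted p under 0.05 in each. *Gclc*, the catalytic subunit of glutamate-cysteine ligase and the rate-limiting step, had log2 fold changes of -0.32 in db/db and -0.29 in STZ-HFD. *Gclm*, its modifier subunit, was higher in every db/db library than in db/+ (23.2 ± 5.06 against 13.4 ± 1.79 CPM; log2 fold change 0.78, adjusted p = 0.128). *Gsr*, which reduces oxidized glutathione, was at 0.34 and -0.20 on the log2 scale. *Gss*, glutathione synthetase, was at 3.78, 6.60, 9.32 and 6.75 CPM in STZ-HFD and at 7.04, 7.15, 3.15 and 3.53 CPM in Con+Veh libraries. The groups overlapped, with a log2 fold change of 0.91 (SE 0.335) that did not pass (adjusted p = 0.152). Exons of *Gss* overlap *Acss2* and 2 antisense genes on the opposite strand over 5.44 to 6.68% of their bases, and whether counting used strand is not given in the sources used here.

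Of 22 soluble glutathione S-transferases 16 were tested, and 1 rose in each model: *Gstt3* in db/db and *Gstt2* in STZ-HFD. Both belong to the theta class and lie in 1 cluster of 4 genes at chr10:75774115-75837424. *Gstt3* (ENSMUSG00000001665, chr10:75774115-75781414, minus strand) was at 27.6, 29.2 and 37.2 CPM in db/db libraries and at 8.41, 8.71 and 10.1 CPM in db/+ libraries. The lowest db/db library was above every db/+ library by a wide margin. *Gstt3* rose by 1.79 on the log2 scale (SE 0.325, limma adjusted p = 0.0176), from 9.06 ± 0.876 to 31.3 ± 5.14 CPM. Without db/+ replicate 2 or any 1 db/db library the log2 fold change was 1.66 to 1.87 and the adjusted p 0.051 to 0.0654. In STZ-HFD its log2 fold change was 0.34 (adjusted p = 0.673). Another annotated gene, *Gm20441*, shares 13.6% of the exon bases of *Gstt3* on the same strand, so reads there could not be assigned to 1 gene.

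*Gstt2* (ENSMUSG00000033318, chr10:75831114-75837424, minus strand) was at 7.24, 11.9, 8.17 and 5.71 CPM in STZ-HFD libraries and at 5.22, 3.16, 2.96 and 4.18 CPM in Con+Veh libraries. The groups did not overlap, although the lowest STZ-HFD and the highest control library were close. *Gstt2* rose by 1.13 on the log2 scale (SE 0.301, limma adjusted p = 0.0480), just inside the threshold. In db/db libraries it was at 2.33, 2.57 and 3.03 CPM, below all db/+ libraries at 5.85, 3.57 and 3.36 CPM (log2 fold change -0.63, adjusted p = 0.250). The increase in STZ-HFD passed in 4 of 14 refits with 1 library removed. It was lost without replicates 2, 3 or 4 of Con+Veh or replicates 2 or 3 of STZ-HFD (0.91 to 1.21, adjusted p = 0.0796 to 0.510), and without db/+ replicates 2 or 3 or any db/db library, which enter only the shared spread (adjusted p = 0.0522 to 0.0566). *Gstt1*, between them in the cluster, gave log2 fold changes of 0.21 and -0.05.

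Of the other 14 soluble transferases tested, 0 passed both limits in limma in either model, and DESeq2 called 1 (*Gsta4* in db/db) and edgeR 0. *Gsta4*, which conjugates the lipid peroxidation product 4-hydroxynonenal, was at 2.58, 2.97 and 1.73 CPM in db/db and at 0.821, 1.08 and 0.389 CPM in db/+ libraries. The groups did not overlap, but the log2 fold change of 1.72 (SE 0.465) was outside the threshold (limma adjusted p = 0.0587). *Gstm1*, the most abundant transferase, was at 36.4, 96.2, 76.5 and 85.8 CPM in STZ-HFD and at 126, 85.8, 154 and 150 CPM in Con+Veh libraries. The log2 fold change of -0.90 (SE 0.227) had an adjusted p of 0.0361 but was smaller than the fold limit, and the highest STZ-HFD library was above the lowest control. The 7 mu-class genes lie together at chr3:107895821-108044894, and the near-identical copies within the mu and pi classes can share reads. Of the 7, *Gstm6* was not tested, and the log2 fold changes of the other 6 ran from -0.78 to 0.90 in db/db and from -0.90 to 0.36 in STZ-HFD. The pi-class genes *Gstp1* and *Gstp2* were at -0.44 and -0.51 in db/db and at 0.17 and 0.39 in STZ-HFD.

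The 3 membrane transferases, small proteins of the endoplasmic reticulum that include enzymes acting on lipid hydroperoxides and leukotrienes, were above 0 in db/db on the log2 scale, and 0 of 3 passed (2 had an unadjusted p under 0.05; DESeq2 and edgeR called 0). *Mgst1* was at 15.0, 6.68 and 7.35 CPM in db/db libraries and at 2.63, 4.19 and 4.26 CPM in db/+ libraries. All 3 db/db libraries lay above db/+, with a log2 fold change of 1.29 (SE 0.370, limma adjusted p = 0.0732). *Mgst2* was at 2.82, 4.48 and 2.06 CPM in db/db and at 1.09, 1.13 and 1.66 CPM in db/+ libraries, again without overlap (log2 fold change 1.23, SE 0.396, adjusted p = 0.0993). *Mgst3* was at 3.66, 9.59, 15.8 and 11.4 CPM in STZ-HFD and at 2.09, 8.50, 5.59 and 6.90 CPM in Con+Veh libraries. Although 3 of 4 STZ-HFD libraries were above every control, the log2 fold change of 0.95 (SE 0.353) did not pass (adjusted p = 0.153).

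The heme oxygenases, *Nqo1*, *Nfe2l2* and *Keap1* gave 0 calls in limma, DESeq2 and edgeR in both models, with 1 of these 5 genes (*Keap1* in db/db) at an unadjusted p under 0.05. *Hmox1*, the inducible heme oxygenase, had log2 fold changes of -0.23 in db/db and -0.19 in STZ-HFD. *Nqo1*, the quinone reductase, had 0.46 and 0.29. *Nfe2l2* had 0.07 and -0.02, and its level of 16.9 to 20.7 CPM (group means) was similar in all groups. *Keap1*, which targets NRF2 for degradation, was at 4.97 ± 0.588 CPM in db/db against 7.02 ± 0.867 CPM in db/+ discs (log2 fold change -0.51, adjusted p = 0.236). *Hmox2*, the constitutive heme oxygenase, shares 40.2% of its exon bases with *Cdip1* on the opposite strand.

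Promoters were read because a shared regulator, NRF2, is known for this group. In the RefSeq windows from 250 bases before to 50 after each start site (GRCm38.p6), 52 of the 59 genes matched by symbol. The core of the antioxidant response element, TGACNNNGC on either strand, occurred in 10 of these 52 (19.2%), compared with 14% of 27025 gene symbols. Of the 6 genes called in limma in either model, *Prdx1* held a match and *Cat*, *Gstt3* and *Gpx3* held none in this window, while *Sod3* and *Gstt2* were not among the matched symbols and were not searched. Windows of 30 bases are given for *Prdx1*, for *Mgst1*, and for *Gclm* and *Txnrd1*, 2 textbook NRF2 targets, on the strand of the gene with the match in capitals. All 4 matches are on the other strand and so appear as the reverse complement.
Prdx1: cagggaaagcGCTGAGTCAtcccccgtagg
Mgst1: gcggggcttgGCACGGTCAggaggcggggt
Gclm: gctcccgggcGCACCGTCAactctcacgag
Txnrd1: ctggatttttGCTTTGTCAttctgacacgg
The windows lie at chr4:116685456-116685485 for *Prdx1*, chr6:138140461-138140490 for *Mgst1*, chr3:122245413-122245442 for *Gclm* and chr10:82859104-82859133 for *Txnrd1*, all on the plus strand. Their log2 fold changes in db/db were 2.18, 1.29, 0.78 and -0.05, and over all 10 genes with a match they ran from -0.55 (*Sod1*) to 2.18 (*Prdx1*).

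The 9 genes that did not reach the filter were *Gpx2*, *Gpx5*, *Gpx6*, *Gsta1*, *Gsta2*, *Gstm6*, *Gsto2*, *Gstp3* and *Gstt4*. Their highest value was 1.40 CPM (*Gsto2* in STZ-HFD replicate 1). That library, which held counts for the most genes, had the highest value for 6 of the 9.

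The difference between the models was tested directly, as the STZ-HFD log2 fold change minus the db/db one, and 3 of 50 members passed where 1.77% of all genes did. *Gpx3* differed by -2.21 (SE 0.420, limma adjusted p = 0.0204) and *Sod3* by -2.22 (SE 0.507, adjusted p = 0.0377), both lower in STZ-HFD. *Gstt2* differed by 1.75 (SE 0.429, adjusted p = 0.0459), higher in STZ-HFD. For *Cat*, which rose in both, the difference of -0.55 did not pass. *Gstt3*, called in db/db alone, differed by -1.44 (adjusted p = 0.131), so its increase was not shown to differ between the models. The models differed in genotype, age, diet, streptozotocin and control group, and these cannot be told apart in this test. Each of the 3 differences lost its call in 5 to 10 of 14 refits with 1 library removed, among them those without db/+ replicate 2, Con+Veh replicate 3, Con+Veh replicate 4 or STZ-HFD replicate 3, where the adjusted p ran from 0.0587 to 0.225.

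Markers of tissue composition moved with several of these results. Of the 8 disc cartilage markers, 6 fell in STZ-HFD by limma, where DESeq2 called 4 and edgeR 1. In db/db 0 fell by limma (1 had an unadjusted p under 0.05, and DESeq2 and edgeR called 0). The STZ-HFD libraries lay below all Con+Veh libraries in the summed level of these markers. With the mean log2 CPM of these markers as a covariate, in a fit added after seeing the data, *Gpx3* gave a log2 fold change of -1.45 (limma adjusted p = 0.642), *Sod3* -0.20 (adjusted p = 0.959) and *Gstm1* 0.051 (adjusted p = 0.992). In that fit 0 of all 16915 genes were called in STZ-HFD, so the lost calls are not particular to these genes. Since the STZ-HFD and Con+Veh libraries did not overlap in the summed level of these markers, the part of this level and that of the model cannot be told apart. Taken singly, 3 of the 8 markers did not overlap. By limma macrophage markers fell for 3 of 8 genes in STZ-HFD (summed median 87.1 against 157 CPM in Con+Veh), muscle markers rose for 4 of 10 (7403 to 20587 against 7363 to 10296 CPM) and osteoblast markers fell for 2 of 6 (83.5 to 239 against 106 to 350 CPM). DESeq2 and edgeR called 0 of the macrophage, muscle and osteoblast markers in STZ-HFD. With the muscle level, as mean log2 CPM, as a covariate *Sod3* gave -1.71 (adjusted p = 0.0953). Over all genes that fit called 7 increases and 51 decreases in STZ-HFD.

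Adipocyte markers rose by limma for 3 of 8 genes in db/db (summed 355 to 639 CPM against 229 to 478 CPM in db/+) and for 1 of 8 in STZ-HFD (970 to 1107 against 434 to 950 CPM). DESeq2 called 3 of them higher in db/db and 2 in STZ-HFD, and edgeR 0. In db/db 7 of the 8 were higher at an unadjusted p under 0.05, and the median log2 fold change was 1.34. The other, *Cfd* (-0.605), was the most abundant marker (215 CPM in db/+, 142 CPM in db/db) and weighed most in the sum. In STZ-HFD all 8 were above 0, with a median of 0.70 and 5 at an unadjusted p under 0.05. With the mean log2 CPM of the adipocyte markers as a covariate, *Cat* gave 1.21 in db/db (adjusted p = 0.361) and 0.87 in STZ-HFD (adjusted p = 0.498), and *Prdx1* and *Gstt3* gave 2.03 (0.307) and 1.97 (0.243) in db/db. In that fit 0 of all 16915 genes were called in db/db, and 2 rose and 6 fell in STZ-HFD. The STZ-HFD and Con+Veh libraries did not overlap in the summed adipocyte level, so its part and that of the model cannot be told apart there. Taken singly, 6 of the 8 adipocyte markers did not overlap between db/db and db/+, against 2 of 8 in STZ-HFD. The part of the adipocyte level and that of the model therefore cannot be told apart in db/db either. Muscle markers were below 0 on the log2 scale for all 10 genes in db/db (median -1.16, summed 2830 to 4686 against 4528 to 8832 CPM). Of these 1 fell by limma, 9 had an unadjusted p under 0.05 and DESeq2 called 2. With the muscle level as a covariate *Cat*, *Prdx1* and *Gstt3* gave 1.77, 2.36 and 1.63 with adjusted p of 0.0693 to 0.0922. Over all genes that fit called 55 increases and 14 decreases in db/db. Erythroid markers, of interest because red cells are rich in catalase and peroxiredoxins, summed to 45.6 to 87.2 CPM in db/db and 55.7 to 74.8 CPM in db/+, with 0 of 5 tested called by limma, DESeq2 or edgeR and 1 of them at an unadjusted p under 0.05 in db/db. With the erythroid level as a covariate the 3 db/db calls held (adjusted p = 0.00744 to 0.0147), and over all genes 372 rose and 183 fell in db/db. Endothelial markers rose for 1 of 6 in db/db by limma and by DESeq2 and for 0 by edgeR. Neutrophil and nucleus pulposus markers gave 0 calls by limma in either model. Of these 1 neutrophil gene had an unadjusted p under 0.05 in each model and 1 nucleus pulposus gene in db/db, and DESeq2 called 1 neutrophil gene lower in STZ-HFD and edgeR 0.

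**Figure D4:**
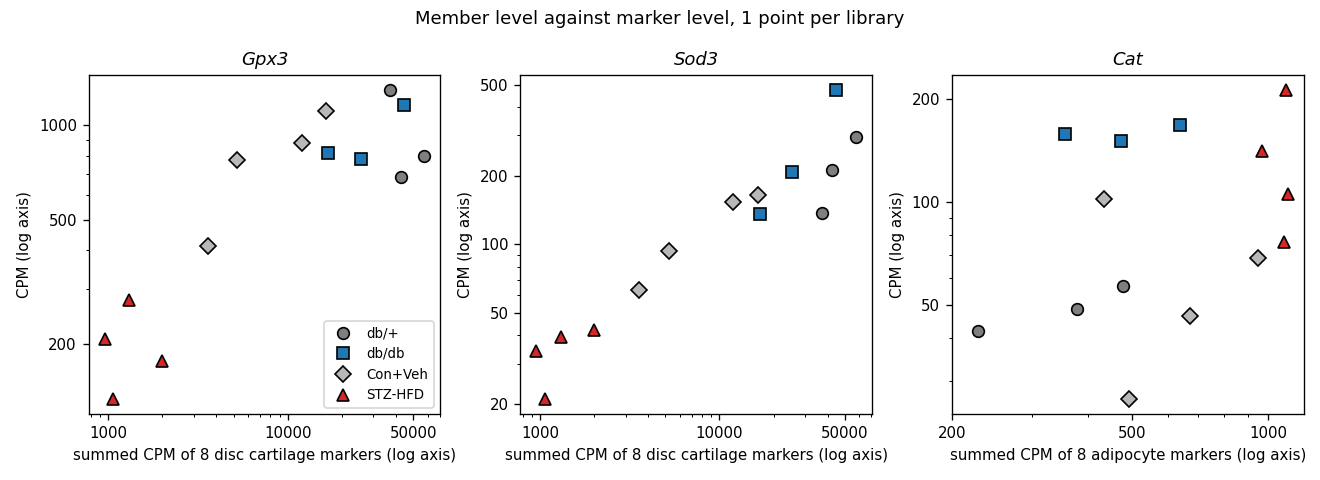
CPM of *Gpx3* and *Sod3* against the summed CPM of 8 disc cartilage markers, and of *Cat* against that of 8 adipocyte markers (all axes log), 1 point per library. STZ-HFD libraries lie at the low end of the cartilage axis and above the controls on the adipocyte axis, while db/db and db/+ libraries overlap in both marker sums. The adipocyte sum is weighted to *Cfd*, and 6 of the 8 adipocyte markers taken singly did not overlap between db/db and db/+.

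Base composition also moved with the db/db values. Across 16899 genes the Spearman correlation of exon GC content with the db/db log2 fold change was -0.43, and across the 50 members -0.44, and in STZ-HFD it was -0.08 and -0.28. *Prdx1* had a GC content of 42.3%, *Cat* 48.7%, *Gstt3* 52.3% and *Gpx4* 60.2%. With the GC trend removed *Prdx1* gave 1.91 (limma adjusted p = 0.0508) and no longer passed, and *Gpx4* gave -1.02 (adjusted p = 0.276), whereas *Cat* (1.72) and *Gstt3* (1.97) still passed.

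Of 76 genes in related pathways 70 were tested, and by limma 2 rose in db/db, while 2 rose and 2 fell in STZ-HFD. The shares among all genes were those given above, 1.23% rising in db/db and 1.3% rising and 1.31% falling in STZ-HFD. DESeq2 called 1 of these increases in db/db (*Mt1*) and both in STZ-HFD (*Idh2* and *Chac1*) but 0 decreases, and edgeR called 0. The metallothioneins *Mt1* and *Mt2*, cysteine-rich proteins that bind zinc and copper and scavenge radicals, rose in db/db. *Mt1* was at 29.4 to 57.0 CPM in db/+ and at 79.4 to 121 CPM in db/db libraries (log2 fold change 1.30, SE 0.287, limma adjusted p = 0.0327) and *Mt2* was at 11.7 to 31.2 and 56.8 to 90.4 CPM (1.79, SE 0.440, adjusted p = 0.0450). In STZ-HFD *Mt1* was at 39.3 ± 6.15 against 45.4 ± 18.1 CPM, and its difference between the models passed (-1.62, adjusted p = 0.0386).

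In STZ-HFD *Chac1*, which degrades glutathione and is known as a target of the amino acid stress response, rose from 2.01 ± 0.573 to 9.02 ± 4.59 CPM (log2 fold change 2.26, SE 0.457, limma adjusted p = 0.0154). Its difference between the models passed as well (2.92, adjusted p = 0.0321). *Idh2*, a mitochondrial source of NADPH, rose from 35.1 ± 8.68 to 74.0 ± 21.1 CPM (1.12, SE 0.259, adjusted p = 0.0262). *Cybb*, the catalytic subunit of the phagocyte NADPH oxidase and a gene of macrophages, fell by 1.15 on the log2 scale (SE 0.255, adjusted p = 0.0216), from 14.1 ± 2.84 to 7.24 ± 1.23 CPM, and macrophage markers were lower in the same libraries. *Secisbp2*, which is needed to read selenocysteine codons, fell by 3.16 on the log2 scale (SE 0.789, adjusted p = 0.0358), but its Con+Veh libraries ranged from 29.9 to 3662 CPM and overlapped the STZ-HFD range of 31.5 to 406 CPM.

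The other pathways gave few or no calls. In the lists for glutaredoxins and glyoxalases (6 of 6 tested), methionine sulfoxide reductases (3 of 4), NRF2 partners (9 of 9), other NRF2-linked genes (5 of 6) and peroxisome genes (11 of 11), limma, DESeq2 and edgeR called 0 in either model, and at an unadjusted p under 0.05 there were 3, 0, 3, 1 and 4 genes in db/db and 2, 2, 1, 1 and 3 in STZ-HFD. Peroxisome genes, listed because catalase works in that organelle, had log2 fold changes from -1.19 (*Pex16*) to 1.13 (*Pex13*) in db/db and a median of 0.09. In STZ-HFD their median was 0.52, with 10 of 11 above 0 and *Pex11a*, a factor of peroxisome division, at 1.17. Of 9 tested NADPH oxidase genes 8 had a log2 fold change below 0 in STZ-HFD, with *Cyba*, the shared membrane subunit, at -1.27 (limma adjusted p = 0.0526). *Nox4*, a source of hydrogen peroxide in many connective tissue cells, differed between the models by -2.67 (limma adjusted p = 0.0251). Its own changes did not pass in db/db (1.53, adjusted p = 0.0583) or in STZ-HFD (-1.15, 0.0877). *Cybb* also differed between the models (-1.925, limma adjusted p = 0.0204).

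The 2 genes with the largest log2 fold changes in size are given for each of the other lists, and apart from the called genes above they did not pass. For NADPH supply they were *Me1*, malic enzyme, at 0.73 and *Taldo1*, transaldolase, at -0.50 in db/db, and *Idh2* and *Me1* (0.90) in STZ-HFD. For glutathione precursors and turnover they were *Cbs*, which makes cystathionine, at 1.37 and *Chac1* at -0.66 in db/db, and *Chac1* and *Ggct*, a cyclotransferase, at 0.77 in STZ-HFD. *Chac1* was thus on this list in both models, with opposite signs. The level of *Cbs* was low, at 0.348 CPM in db/+ and 0.883 CPM in db/db (SE of the log2 fold change 0.635). Among glutaredoxins and glyoxalases the largest were *Glrx* (1.05) and *Glrx5* (0.93) in db/db, and *Glrx5* (1.17) and *Glo1*, which detoxifies methylglyoxal (0.65), in STZ-HFD. The methionine sulfoxide reductases, which repair oxidized methionine, gave *Msrb3* (0.35) and *Msrb1* (0.16) in db/db and *Msra* (0.92) and *Msrb1* (0.88) in STZ-HFD. All of these were above 0 in the models named. In db/db, however, *Hagh*, a glyoxalase of the first list, was at -0.815 with every db/db library below db/+ (limma adjusted p = 0.156), and *Msra* was at -0.063.

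NRF2 partners were led by *Mafk*, which pairs with NRF2 on DNA (-1.01), and *Rbx1*, a ubiquitin ligase subunit (0.85), in db/db and by *Rbx1* (0.82) and *Cul3*, the scaffold that KEAP1 uses (0.49), in STZ-HFD. Other NRF2-linked genes were led by *Ftl1*, ferritin light chain (-1.36), and *Osgin1* (-0.25) in db/db and by *Ephx1*, an epoxide hydrolase (-0.60), and *Osgin1* (0.55) in STZ-HFD. These were mixed in sign. The NADPH oxidase list had *Duox2* (1.76) and *Nox4* (1.53) in db/db and *Cyba* and *Cybb* in STZ-HFD. The level of *Duox2* was low, at 0.214 CPM in db/+ and 0.674 CPM in db/db with overlapping libraries (SE of the log2 fold change 0.882). Beside *Mt2* the largest metallothionein value in db/db was that of *Mt3* (-2.65), and in STZ-HFD the largest were *Mt3* (-0.46) and *Mt1* (-0.32). For selenoprotein synthesis and transport, *Selenop*, the selenium carrier (0.78), and *Eefsec*, the selenocysteine elongation factor (-0.68), led in db/db, and *Secisbp2* and *Sephs2*, which makes selenophosphate (1.29), in STZ-HFD. The peroxisome list was completed in STZ-HFD by *Abcd3*, a membrane transporter, at 0.73.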

How the data were processed

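The authors aligned reads to GRCm38 with STAR and counted them per Ensembl gene with featureCounts, and the read counts per gene they deposited, with no normalization, were used here. RNA had been amplified from low input, and whether counting used strand is not given in the sources used here. The authors also deposited estimated counts per transcript from Salmon, which were used here only for TPM, transcript totals and 1 alternative; the transcripts listed do not cover every gene. All 14 libraries were used. Repeated gene lines with identical values (287) were counted once. The filter asked for over 1 CPM, scaled by the library total alone, in 3 or more libraries. Counts were scaled by TMM in edgeR 4.0.16 and fitted with limma 3.58.1 (voom with sample quality weights, 4 groups in 1 model, R 4.3.3), with Benjamini-Hochberg adjustment per comparison. Calls required both an adjusted p below 0.05 and a log2 change of 1 or more in size. Sample weights ran from 0.275 (Con+Veh replicate 1) to 3.05 (Con+Veh replicate 3). Errors are SD of CPM or SE of the log2 fold change. Replicates are separate mice. Exon length, overlap and GC content came from GENCODE M21 on GRCm38, and promoters from RefSeq. Full statistics are given for every called gene and for the 8 with the smallest p in each model, and of each related pathway the called genes and the 2 with the largest log2 fold change in size are named. The genes and lists were chosen with earlier results of these data known. The scripts were tested on simulated counts. DESeq2 1.42.0, edgeR's quasi-likelihood test, other filters and scalings, a replicate block, marker covariates and leaving out each library were the alternatives.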

Additional observations from a re-analysis of the deposited data

Results flagged for a closer look

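In 38 groups of 4 libraries, 1 library stood far from the other 3 by Dixon's criterion in 3 cases, and chance alone gives about 1 in 20. *Prdx1* was at 289 CPM in STZ-HFD replicate 3, against 58.6 to 95.5 CPM in the other 3. *Sod2* was at 78.1 CPM in Con+Veh replicate 2, against 56.1 to 58.2 CPM. These genes together made up 0.28% of counts outside ribosomal RNA in STZ-HFD replicate 2, the lowest value of its group. The STZ-HFD effect differed from the db/db effect by -2.21 on the log2 scale for *Gpx3*, by -2.22 for *Sod3* and by 1.75 for *Gstt2*, each past the limma test of the difference itself.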

How the results depend on the processing

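Called members were 3 up and 0 down in db/db, 2 up and 2 down in STZ-HFD, and 3 in the difference. The increases in db/db numbered 0 with edgeR, without quality weights and with the muscle, adipocyte or disc cartilage covariate, and 9 with the replicate block, alone or with the GC trend removed. The decreases in db/db numbered 1 with DESeq2, the block or the erythroid covariate. The increases in STZ-HFD numbered 0 with edgeR, DESeq2, filterByExpr, no filter, no quality weights, each model fitted alone, transcript totals, the block (with or without GC), any of the 4 covariates and without the 2 libraries whose names carry an unexplained ending, and 1 without ribosomal RNA genes. The decreases in STZ-HFD numbered 1 with edgeR, no quality weights, no filter or the muscle or adipocyte covariate, and 0 with the block (with or without GC) or the cartilage covariate. The difference gave 0 with edgeR, no quality weights, the block (with or without GC) and the muscle, adipocyte or cartilage covariate, and 1 with filterByExpr, no filter or transcript totals. *Gstm1* in STZ-HFD turned from -0.90 to 0.051 with the cartilage covariate. Leaving out 1 library gave 0 to 4 increases and 0 to 1 decreases in db/db, 0 to 2 and 1 to 2 in STZ-HFD, and 0 to 4 differences. Over all genes edgeR called 0 increases and 0 decreases in db/db and 6 and 23 in STZ-HFD, and DESeq2 158 and 53, and 122 and 150. In db/db the main fit called 208 and 73 over all genes, the replicate block 796 and 688, and no quality weights 7 and 2. The muscle, adipocyte and cartilage covariates there gave 55 and 14, 0 and 0, and 30 and 4. In STZ-HFD the main fit called 220 and 221, the block 2 and 4, and no quality weights 3 and 16. The cartilage covariate there gave 0 and 0, and leaving out Con+Veh replicate 3 gave 3 and 14. Same-numbered libraries did not deviate together (r = 0.175, -0.25 and -0.164 in the db groups and -0.23 to -0.0545 in the others), so the replicate numbers were not taken as pairs. The causes of these changes were not tested. The 9 genes under the filter were too low to test. The number of mice limits the precision throughout.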
